A study of Mus musculus with 8 samples.

Results

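Macrophages recycle the iron of old red cells: haem is opened by haem oxygenase, the freed iron is stored in ferritin or leaves the cell through ferroportin, and other cells take it up again bound to transferrin. Resident macrophages that depend on CSF1R, the receptor for CSF1 and IL-34, are among the cells best known for this work, although most of the genes involved are also used by other cells. The genes followed here are 10 rows of the count table chosen by symbol, out of 27133 rows in all: the exporter Slc40a1 and the ferroxidase Cp, the uptake genes Tfrc, Trf and Slc11a2, the ferritin chains Fth1 and Ftl1, the phagosomal transporter Slc11a1, and the haem breakdown enzymes Hmox1 and Blvrb. All 10 were counted in every library and all 10 passed the filter on low counts, which left 17028 genes in the test.

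RNA was measured in parietal bone, a flat bone of the skull roof, of C57BL6J mouse pups. The isotype group (4 libraries, numbered 2 to 5 in their titles) received a control antibody, and the anti-CSF1R group (4 libraries, numbered 7 to 10) a CSF1R blocking antibody meant to deplete myeloid cells, both given transcranially on postnatal days 2, 4 and 6, with perfusion and collection on postnatal day 9. No allele or other agent is named for either group. The labels do not say whether each library came from 1 pup, and the p-values therefore rest on library-to-library spread that may be technical.

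Libraries held 57.5 M to 69.1 M counts in all. Levels are given as CPM, a count scaled to the library total with TMM factors; 3 counts, the floor for detection, are worth 0.0396 to 0.0573 CPM (counting error only). Isotype 3 and 4 stood apart from the other 6 libraries, with transcripts rich in GC over-represented in both (Spearman's rho over genes of GC content with the departure from the median library was 0.669 and 0.656, against -0.381 to -0.032 in the other 6). The values of the 10 genes are therefore also given from a reduced fit, which takes isotype 2 and 5 alone against the 4 anti-CSF1R libraries, and from a corrected fit, which keeps all 8 and adds an offset per gene and library for GC content and transcript length. Csf1r, the target gene, stood at 361 ± 152 CPM (SD, n = 4) with isotype and 57.0 ± 11.8 CPM with anti-CSF1R, a log2 fold change of -2.66 ± 0.32 (SE; edgeR adjusted p = 0.0156). The call ended when any 1 anti-CSF1R library was dropped (edgeR adjusted p = 0.0564 to 0.0812), with log2 fold changes of -2.73 to -2.52. It held in the reduced fit (-2.06 ± 0.19, edgeR adjusted p = 0.00516) and the corrected fit (-2.52 ± 0.25, edgeR adjusted p = 0.00128). All 12 osteoblast markers listed passed the filter, and together they took 168544 to 305853 CPM in every library. Summed macrophage markers (18 of 19 tested, 9 lower and 0 higher in edgeR) went from 679.5 to 1158 CPM with isotype to 319 to 387 CPM with anti-CSF1R. Markers of osteoclasts, the bone-resorbing cells that also depend on CSF1R, moved with them: 9 of 16 were lower and 0 higher in edgeR, and their sum went from 6314 to 14489 CPM with isotype to 2467 to 3314 CPM with anti-CSF1R. The part of osteoclasts in the iron gene results was not tested. Vsig4, a receptor of tissue-resident macrophages, was at or below 0.0382 CPM in every library. Skeletal muscle markers (7 of 12 tested) also summed lower with anti-CSF1R, 8.86 to 10.6 CPM against 14.2 to 77.7 CPM, and their part in the results below was not tested. In whole bone, fewer cells of a type and less RNA per cell cannot be told apart.

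Several messages of this pathway carry an iron-responsive element, a short hairpin that iron-regulatory proteins bind when the cell is short of iron. Bound at the start of a message, they hold back its translation, as in ferritin. Bound at its end, they protect the message from decay, as in the transferrin receptor. RNA levels of ferritin therefore do not give the protein, while those of Tfrc are themselves a point of control. The elements of the 3 members whose pattern below turns on storage and uptake are shown so that this difference can be read from the sequence. Each is given as 30 bases of the GENCODE M21 transcript, 5′ to 3′, with the 6-base loop in capitals.
Fth1, 5′ UTR, exonic, GRCm38 chr19:9982732-9982761, plus strand: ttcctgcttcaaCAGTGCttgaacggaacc
Ftl1, 5′ UTR, exonic, GRCm38 chr7:45459778-45459807, minus strand: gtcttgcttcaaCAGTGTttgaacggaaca
Tfrc, 3′ UTR, exonic, GRCm38 chr16:32631219-32631248, plus strand: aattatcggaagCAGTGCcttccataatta
Tfrc, 3′ UTR, exonic, GRCm38 chr16:32631598-32631627, plus strand: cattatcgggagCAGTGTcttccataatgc
Tfrc, 3′ UTR, exonic, GRCm38 chr16:32631663-32631692, plus strand: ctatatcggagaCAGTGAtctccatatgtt
Tfrc, 3′ UTR, exonic, GRCm38 chr16:32631710-32631739, plus strand: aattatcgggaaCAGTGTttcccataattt

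The search asked for a C, 5 bases, the loop CAGTGN with any last base but G, and 5 bases able to pair with the first 5 (G with T allowed), on the sense strand of the transcript's UTRs. Of 10 members, 6 had an entry in the RefSeq sequence table of GRCm38.p6, and their results are given (Fth1, Ftl1, Tfrc, Cp, Slc11a1 and Blvrb). Slc40a1, Trf, Slc11a2 and Hmox1 had no entry there. Their search results are not given, so nothing is said on whether they carry the element. Fth1 and Ftl1 had 1 match each in the 5′ UTR and Tfrc had 4 in the 3′ UTR. Cp, Slc11a1 and Blvrb had 0, which says only that this pattern is not in the UTRs of their longest coding transcript. Other transcripts of these genes were not searched. Over 21877 coding genes of GENCODE M21, 0.0731% had a match in the 5′ UTR and 0.421% in the 3′ UTR of the longest coding transcript. The build of the counts is not settled between GRCm38 and GRCm39, so the coordinates belong to the reference and not to the count table.

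None of the 10 iron handling genes passed the test on all 8 libraries, where 9 of 18 macrophage markers fell. In edgeR's quasi-likelihood test with Benjamini-Hochberg adjustment over all genes, 0 of 10 had an adjusted p under 0.05, against 0.846% of all genes tested. DESeq2 and limma-voom also called 0 of 10, with a background of 4.01% in DESeq2. For limma-voom the share of all genes called was not computed, so its count has no background (members' limma-voom adjusted p of 0.232 or higher). At an unadjusted p under 0.05, edgeR had 5 of 10 members, against 17.9% of all genes, and DESeq2 had 6, against 19.6%. The median log2 fold change (anti-CSF1R minus isotype throughout) was -0.43 over the members and 0.03 over all genes tested. In the reduced fit the members' median was 0.05, and in the corrected fit -0.17, against 0.00 and 0.02 over all genes. The corrected fit called 2 members, Slc40a1 as higher and Tfrc as lower (background 2.88%, of which 0.558% higher and 2.32% lower). The reduced fit called 0 of 10 (background 3.06%), with 6 at an unadjusted p under 0.05, against 15.1% of all genes.

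The groups did not overlap in 5 of the 10 members, 2 higher with anti-CSF1R (Slc40a1 and Cp) and 3 lower (Slc11a2, Fth1 and Ftl1). Over all genes tested 15.0% did not overlap, 6.61% higher and 8.34% lower. After adjustment for GC content and length the same 5 members and Tfrc, lower, did not overlap, 6 of 10 against a background of 15.4% (7.98% higher and 7.41% lower). The adjustment narrowed the isotype SD of every member except Slc11a2, where it went from 15.0 to 18.9 CPM.

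**Figure D1:**
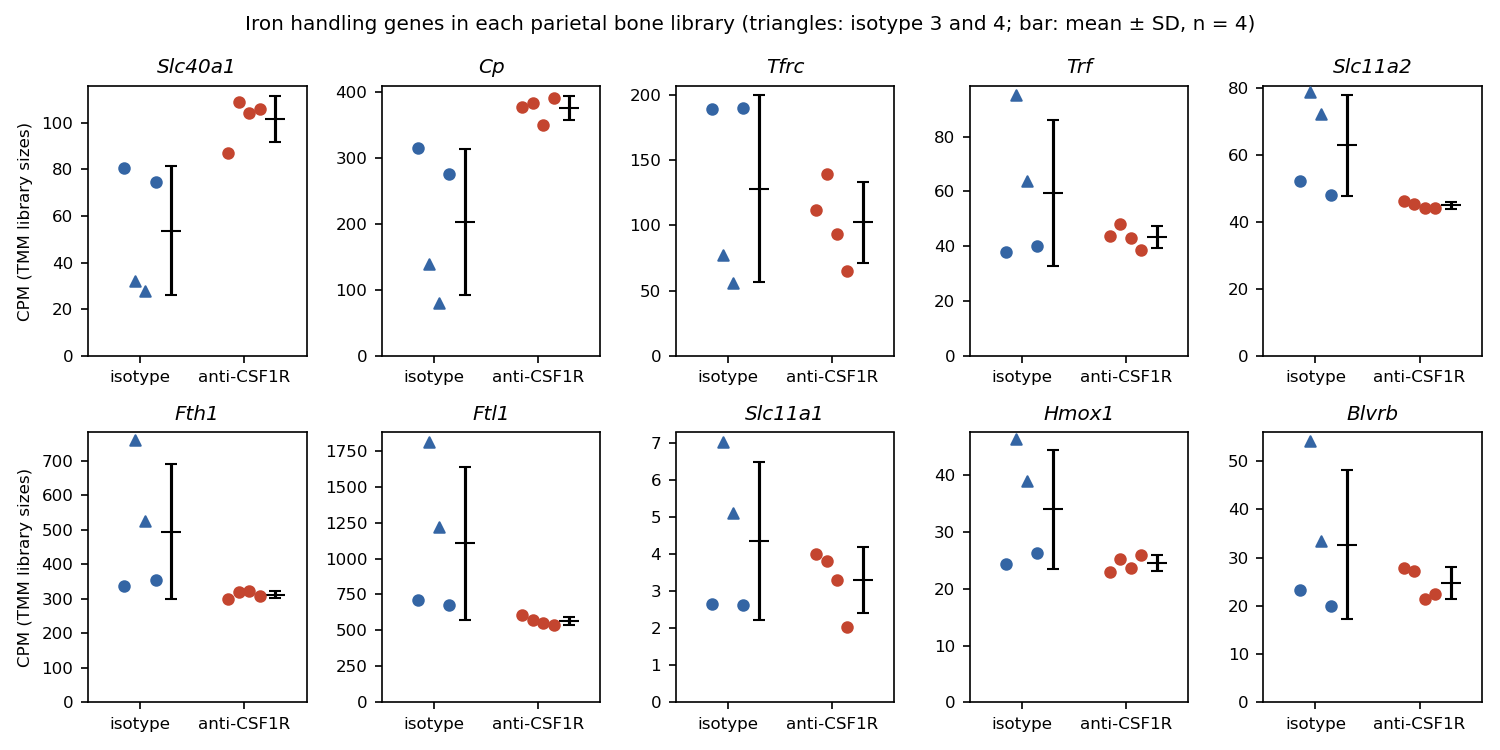
CPM (TMM library sizes) of each iron handling gene in the 4 isotype (blue) and 4 anti-CSF1R (red) libraries; triangles mark isotype 3 and 4, and the black bar is the mean ± SD. The triangles lie below the other isotype libraries in Slc40a1, Cp and Tfrc and above them in the other 7 genes, and the anti-CSF1R libraries of Slc40a1 and Cp lie above every isotype library.

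The export genes had a higher level in every anti-CSF1R library than in any isotype library. Slc40a1 encodes ferroportin, the iron exporter of the cell membrane. Isotype 2 to 5 measured 80.5, 32.0, 27.7 and 74.5 CPM of Slc40a1, against 86.9, 109, 104 and 106 CPM for anti-CSF1R 7 to 10. The low isotype values were those of libraries 3 and 4, and the gap to anti-CSF1R was narrow for libraries 2 and 5. The full fit gave a log2 fold change of 0.92 ± 0.34 (SE; edgeR adjusted p = 0.278), and the reduced fit 0.39 ± 0.09 (edgeR adjusted p = 0.0589). In the corrected fit it was 0.61 ± 0.13 and passed (edgeR adjusted p = 0.0364, the lowest of 16 alternatives, which reached 0.487). The GC and length adjusted levels of Slc40a1 were 47.6 to 67.8 CPM in the isotype libraries and 76.0 to 92.5 CPM in the anti-CSF1R libraries.

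Cp encodes ceruloplasmin, a copper ferroxidase that helps load exported iron onto transferrin. Its levels were 314, 139, 80.6 and 276 CPM for isotype 2 to 5, against 377, 383, 349.5 and 390.5 CPM for anti-CSF1R 7 to 10. As in Slc40a1, isotype 3 and 4 were lowest and no anti-CSF1R library reached down to the isotype range. For Cp the full fit gave 0.89 ± 0.38 (edgeR adjusted p = 0.278), the reduced fit 0.34 ± 0.08 (edgeR adjusted p = 0.0507) and the corrected fit 0.42 ± 0.14 (edgeR adjusted p = 0.148), all log2 fold changes. It did not pass in any of 16 alternatives.

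Of the uptake genes, Tfrc, the transferrin receptor through which iron enters dividing and haemoglobin-making cells, varied most between libraries. Isotype 2 to 5 measured 189, 77.3, 55.9 and 190 CPM of Tfrc, against 112, 139, 93.4 and 64.7 CPM for anti-CSF1R 7 to 10. All 4 anti-CSF1R libraries were below isotype 2 and 5, and 3 of them were above isotype 3 and 4, so the groups overlapped. Its log2 fold change was -0.33 ± 0.41 in the full fit (edgeR adjusted p = 0.572) and -0.89 ± 0.30 in the reduced fit (edgeR adjusted p = 0.254). In the corrected fit it was -0.89 ± 0.20, just past the threshold (edgeR adjusted p = 0.0485; range over 16 alternatives 0.0485 to 0.900). The adjusted levels were then 129 to 157 CPM with isotype and 49.3 to 103 CPM with anti-CSF1R. Among the anti-CSF1R libraries Tfrc had the same order as the erythroid marker score, the mean log2 CPM of 16 markers, which was 4.46, 4.89, 3.95 and 2.40 for libraries 7 to 10. Library 10 was lowest in both. Of the anti-CSF1R libraries it was also lowest in the scores of macrophage (1.94), osteoclast (4.82), neutrophil (1.69) and monocyte markers (3.61). In the osteoblast score (10.88) it was not. A low library 10 is therefore not particular to the erythroid markers. For isotype 2 to 5 the erythroid score was 3.83, 3.93, 3.33 and 3.24, and Tfrc did not follow it there. Of the 16 erythroid markers 0 passed in edgeR, and they summed to 416 to 1166 CPM with isotype and 310.3 to 988 CPM with anti-CSF1R. The part of erythroid cells in the Tfrc values was not tested.

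Trf encodes transferrin, the iron carrier of plasma that some tissues also make locally. Isotype 2 to 5 measured 38.0, 95.3, 63.7 and 40.2 CPM of Trf, against 43.7, 48.1, 42.9 and 38.7 CPM for anti-CSF1R 7 to 10. The anti-CSF1R libraries lay beside isotype 2 and 5, and the gap between the group means rested on isotype 3 and 4. Its log2 fold change was -0.45 ± 0.28 in the full fit, 0.15 ± 0.08 in the reduced fit and -0.22 ± 0.19 in the corrected fit (edgeR adjusted p = 0.317, 0.481 and 0.462).

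Slc11a2 encodes DMT1, which carries iron out of the endosome after uptake. Isotype 2 to 5 measured 52.2, 78.8, 72.3 and 48.1 CPM of Slc11a2, against 46.3, 45.4, 44.0 and 44.2 CPM for anti-CSF1R 7 to 10. All anti-CSF1R values were below all isotype values, by a small margin for isotype 5. Its log2 fold change was -0.48 ± 0.18 in the full fit, -0.16 ± 0.06 in the reduced fit and -0.54 ± 0.18 in the corrected fit (edgeR adjusted p = 0.278, 0.228 and 0.146).

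Both ferritin chains were lower in every anti-CSF1R library than in any isotype library, without passing the test. Ftl1 is the light chain that helps the iron core form. Isotype 2 to 5 measured 711, 1812, 1219.6 and 678 CPM of Ftl1, against 606, 573, 549 and 540.1 CPM for anti-CSF1R 7 to 10. Isotype 3 and 4 were far above the rest, and the 4 anti-CSF1R libraries were close together below isotype 5. For Ftl1 the log2 fold change was -0.96 ± 0.31 in the full fit (edgeR adjusted p = 0.242), -0.30 ± 0.08 in the reduced fit (edgeR adjusted p = 0.0731) and -0.40 ± 0.13 in the corrected fit (edgeR adjusted p = 0.133). Fth1 is the heavy chain, which oxidises iron on entry. Its levels were 338, 759, 527 and 355 CPM for isotype 2 to 5, against 299, 321, 322 and 308 CPM for anti-CSF1R 7 to 10. The order of the libraries was like that of Ftl1, with isotype 3 and 4 on top and all anti-CSF1R libraries at the bottom. For Fth1 the log2 fold change was -0.66 ± 0.26 in the full fit, -0.15 ± 0.07 in the reduced fit and -0.27 ± 0.13 in the corrected fit (edgeR adjusted p = 0.278, 0.318 and 0.224).

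The balance of the chains was compared within each library. Ftl1 minus Fth1, in log2 CPM, was 1.12 ± 0.15 with isotype (SD, n = 4) and 0.86 ± 0.11 with anti-CSF1R. That is -0.26 from isotype to anti-CSF1R (exact two-sided permutation p = 0.0571, adjusted p = 0.114 over 6 such values). The 6 include Slc40a1 and Hmox1 relative to a macrophage marker score, given below, whose small p-values lower this adjusted p. With isotype 2 and 5 only the difference was -0.14, and after the GC and length adjustment -0.13 (exact permutation p = 0.267 and 0.114). The groups overlapped through isotype 5, at 0.93, and anti-CSF1R 7, at 1.02. Ferritin has processed pseudogenes: the row of Ftl1-ps2 held 8 to 57 counts, against 32718 to 94923 in Ftl1, and how reads that fit both were counted is not stated.

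Slc11a1 encodes NRAMP1, which pumps iron and manganese out of the phagosome of macrophages and neutrophils. It was the scarcest member, at 2.65, 7.02, 5.09 and 2.62 CPM for isotype 2 to 5, against 4.00, 3.82, 3.29 and 2.03 CPM for anti-CSF1R 7 to 10. Only anti-CSF1R 10 was below isotype 2 and 5. Its log2 fold change was -0.40 ± 0.36 in the full fit, 0.32 ± 0.26 in the reduced fit and -0.05 ± 0.25 in the corrected fit (edgeR adjusted p = 0.435, 0.639 and 0.908). Relative to the score of 15 neutrophil markers, Slc11a1 was at -0.55 ± 0.46 with isotype and -0.66 ± 0.50 with anti-CSF1R (log2 units, exact two-sided permutation p = 0.686, adjusted p = 0.686). Those markers summed to 131 to 358 CPM with isotype and 121 to 346 CPM with anti-CSF1R.

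The haem breakdown genes overlapped between the groups. Hmox1 encodes haem oxygenase 1, the inducible enzyme that opens the haem ring and frees its iron. Isotype 2 to 5 measured 24.4, 46.3, 39.0 and 26.3 CPM of Hmox1, against 22.9, 25.2, 23.7 and 26.0 CPM for anti-CSF1R 7 to 10. The anti-CSF1R libraries sat at the level of isotype 2 and 5. For Hmox1 the log2 fold change was -0.47 ± 0.22 in the full fit (edgeR adjusted p = 0.278), -0.05 ± 0.07 in the reduced fit (edgeR adjusted p = 0.806) and -0.12 ± 0.10 in the corrected fit (edgeR adjusted p = 0.474). Blvrb encodes biliverdin reductase B, an enzyme of haem catabolism that is abundant in red cells. Its levels were 23.4, 54.1, 33.4 and 20.0 CPM for isotype 2 to 5, against 27.8, 27.3, 21.5 and 22.4 CPM for anti-CSF1R 7 to 10. Isotype 3 and 4 were highest, and the anti-CSF1R libraries lay around isotype 2 and 5. For Blvrb the log2 fold change was -0.40 ± 0.30 in the full fit, 0.19 ± 0.12 in the reduced fit and 0.14 ± 0.13 in the corrected fit (edgeR adjusted p = 0.359, 0.549 and 0.485).

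**Figure D2:**
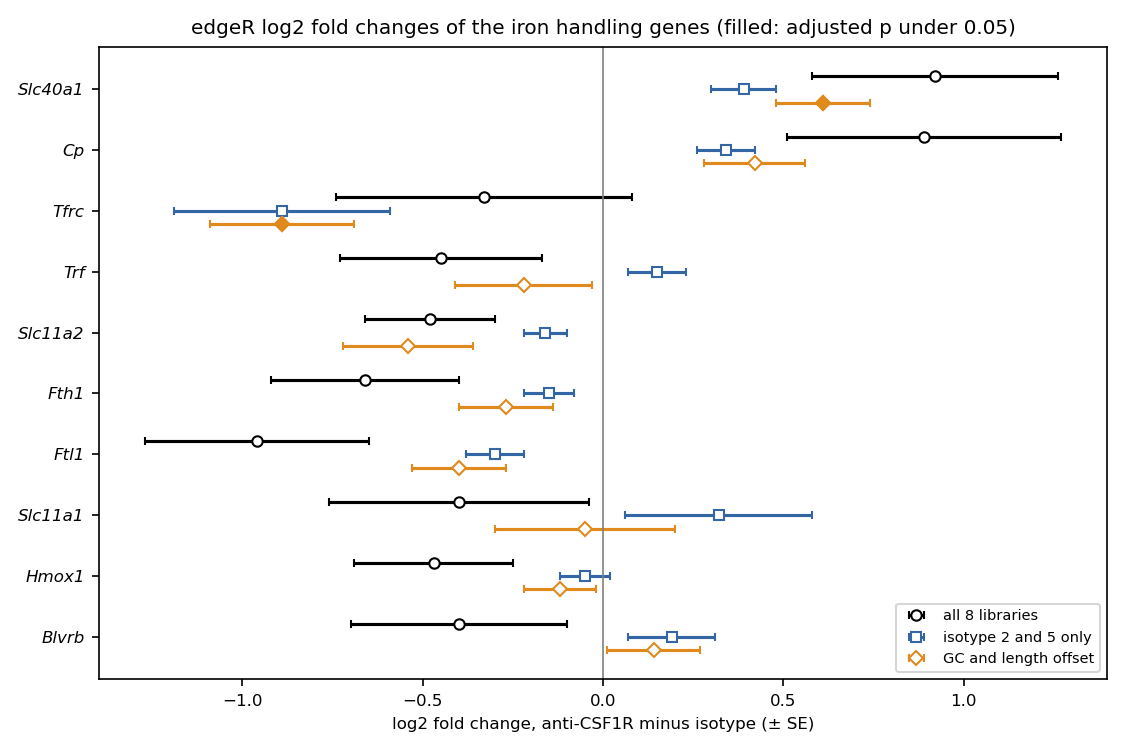
Log2 fold change (anti-CSF1R minus isotype, ± SE, edgeR) of the 10 genes in the full fit on 8 libraries (black), the reduced fit with isotype 2 and 5 only (blue) and the corrected fit with the GC and length offset (orange); filled marks have an adjusted p under 0.05. Slc40a1 and Cp lie above 0 and Tfrc, Slc11a2, Fth1, Ftl1 and Hmox1 below 0 in all 3 fits, while Trf, Slc11a1 and Blvrb change sign between fits, and the filled marks are Slc40a1 and Tfrc in the corrected fit.

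Within the isotype group alone, where no treatment differs, the members separated by base composition. The log2 level of isotype 3 and 4 minus that of isotype 2 and 5 was -1.53 in Tfrc, -1.47 in Cp and -1.38 in Slc40a1, whose longest coding transcripts have a GC content of 39.8%, 41.7% and 43.5%. It was 0.59 to 1.17 in the other 7 members, whose GC content ran from 50.4% (Slc11a2) to 58.1% (Ftl1). Over the 10 members Spearman's correlation of that difference with GC content was 0.879, and over 16005 tested genes 0.705. These are descriptions across genes of the same 4 libraries. In the full fit Slc40a1 and Cp, of low GC content, had positive log2 fold changes, and the 7 members of high GC content had negative ones. Tfrc, of the lowest GC content, went against that split with -0.33.

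**Figure D3:**
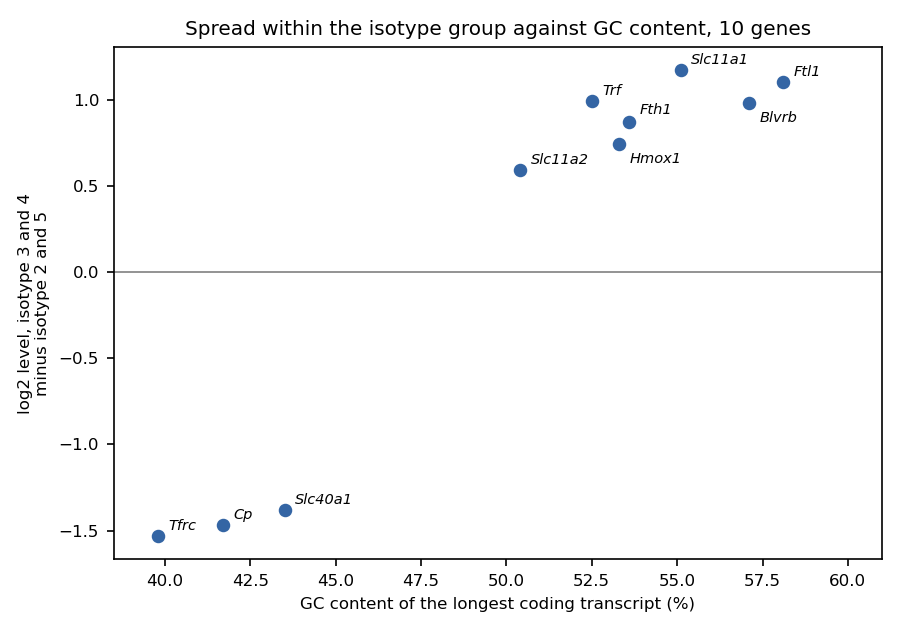
Difference in log2 level between isotype 3 and 4 and isotype 2 and 5 (y axis) against the GC content in percent of the longest coding transcript (x axis), 1 point per iron handling gene. Tfrc, Cp and Slc40a1 lie at or below -1.38 with a GC content of 43.5% or less, and the other 7 genes at or above 0.59 with a GC content of 50.4% or more.

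Set against the macrophage markers, whose score fell, ferroportin and haem oxygenase messages had higher relative levels in all anti-CSF1R libraries. Neither passed after adjustment. The log2 level of Slc40a1 minus the macrophage score (mean log2 CPM of 18 markers) was 2.64, 1.16, 0.89 and 2.37 for isotype 2 to 5, against 4.12, 4.22, 4.03 and 4.79 for anti-CSF1R 7 to 10. The groups did not overlap, and the means were 2.52 apart (exact two-sided permutation p = 0.0286, the smallest possible, adjusted p = 0.0857 over 6 values). With isotype 2 and 5 only the means were 1.79 apart, and after the GC and length adjustment 2.07. Hmox1 minus the same score was 1.22 ± 0.39 with isotype and 2.24 ± 0.37 with anti-CSF1R, also without overlap (exact two-sided permutation p = 0.0286, adjusted p = 0.0857). This difference of 1.03 became 1.35 with isotype 2 and 5 only and 1.33 after the GC and length adjustment. With the median over markers in place of the mean it was 1.44, but the groups overlapped through isotype 3, at 2.09, and anti-CSF1R 9, at 1.94 (exact permutation p = 0.0571). The macrophage score itself was 3.69 to 3.90 with isotype and 1.94 to 2.68 with anti-CSF1R, and both differences contain its fall. Because the score alone separates the groups, a gene of constant level would separate them too. These permutation tests therefore cannot show a change of Slc40a1 or Hmox1 itself. On their own, the log2 fold changes in the full fit were 0.92 for Slc40a1 and -0.47 for Hmox1. Relative to the erythroid score, Tfrc differed by -0.52 and Blvrb by -0.64 between the groups (exact two-sided permutation p = 0.400 and 0.286, adjusted p = 0.480 and 0.429), with anti-CSF1R 10 the highest anti-CSF1R library in both. For Tfrc the difference was -1.33 with isotype 2 and 5 only. After the GC and length adjustment it was -1.34 (exact permutation p = 0.0286, adjusted p = 0.0571 over 6 values). The groups then did not overlap, at 3.44 to 3.95 with isotype and 1.79 to 3.15 with anti-CSF1R. The 6 include Slc40a1 and Hmox1 minus the macrophage score, both also at 0.0286. Those tests carry the fall of the score, and their small p-values lower the adjusted p of Tfrc. For Blvrb the difference was -0.20 and -0.26 in the same order, and -1.10 without anti-CSF1R 10 (exact permutation p = 0.0571, the smallest possible with 3 libraries in that group).

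**Figure D4:**
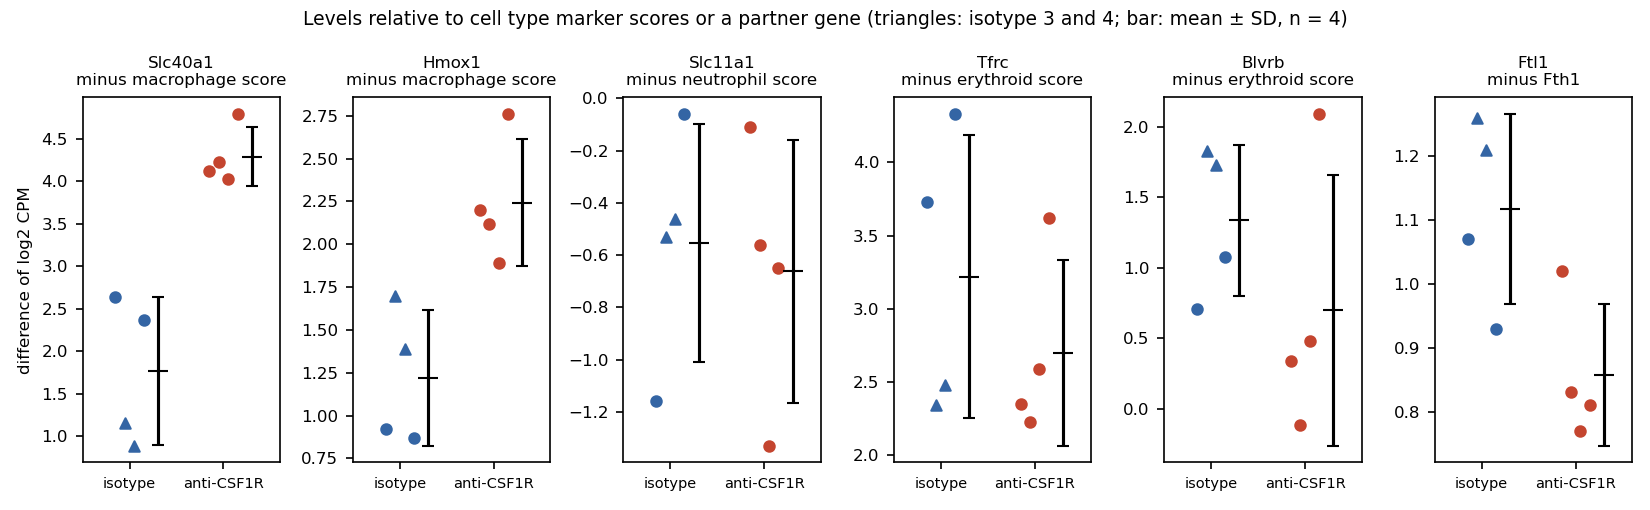
Log2 CPM of a gene minus a marker score, or of Ftl1 minus Fth1 (y axis, log2 units), in each isotype (blue) and anti-CSF1R (red) library; triangles mark isotype 3 and 4, and the black bar is the mean ± SD, n = 4. The groups separate in Slc40a1 and Hmox1 relative to the macrophage score and overlap in the other 4 panels.

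Compared per length, ferritin was by far the most abundant message of the set. In CPM per kb of the longest coding transcript, the isotype means were 1142 for Ftl1, 331 for Fth1 and 44.4 for Cp. Blvrb, Tfrc, Trf, Hmox1, Slc40a1 and Slc11a2 followed in that order, from 31.8 down to 14.2, and Slc11a1 was lowest at 1.88. From Cp to Slc11a2, neighbours in the order differed by less than their SD over the 4 libraries (24.2 for Cp, 15.0 for Blvrb), and the steps from Ftl1 to Fth1, from Fth1 to Cp and from Slc11a2 to Slc11a1 were larger. In isotype 2 and 5 alone the order below Fth1 was Cp (64.7), Tfrc (38.7), Slc40a1 (23.0), Blvrb (21.1), Hmox1 (16.2), Trf (15.2), Slc11a2 (11.4) and Slc11a1 (1.14). With anti-CSF1R, Slc40a1 stood next after Cp, at 30.1 against 82.2 CPM per kb. The value of Fth1 depends on the transcript taken, since its coding transcripts start at more than 1 site.

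Other genes of iron transport and control were taken from a list of 39. Of these, 35 were tested and 0 passed in the full edgeR fit (7 at an unadjusted p under 0.05, against 17.9% of all genes), with a median log2 fold change of 0.07, against 0.03 over all genes. Hamp, the gene of the iron hormone hepcidin, and Hephl1, Hjv and Ftmt were below the filter. The 4 most abundant, by mean CPM over all 8 libraries, were Lrp1 (a receptor that clears haem bound to hemopexin, among many ligands), Neo1 (neogenin, a partner of hemojuvelin), Pcbp2 (an iron chaperone) and Slc39a14 (a metal importer). Their log2 fold changes were 0.18, 0.34, -0.21 and 0.18 in the full fit (edgeR adjusted p = 0.396, 0.297, 0.327 and 0.345). In the reduced fit they were 0.27, 0.10, -0.07 and 0.21, and in the corrected fit 0.21, 0.08, -0.83 and -0.02, none of them past the threshold. The GC and length adjustment widened the isotype SD of Pcbp2 from 33.5 to 181 CPM and of Slc39a14 from 11.2 to 42.5 CPM. It narrowed that of Lrp1 and Neo1. The reduced fit called 2 genes higher and 2 lower (background 0.679% and 2.38%), the corrected fit 2 higher and 1 lower (background 0.558% and 2.32%), and DESeq2 1 higher (background 0.716%). The genes in these counts, and Cd163 and Spic, were chosen after their values were seen.

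Heph, the membrane-bound ferroxidase that works with ferroportin, measured 19.6, 8.55, 8.32 and 15.6 CPM for isotype 2 to 5, against 25.1, 25.7, 23.4 and 25.1 CPM for anti-CSF1R 7 to 10. Like Slc40a1 and Cp it did not overlap between the groups. Its log2 fold change was 0.93 ± 0.28 in the full fit (edgeR adjusted p = 0.208), and it passed in the reduced fit (0.50 ± 0.10, edgeR adjusted p = 0.0236), the corrected fit (0.62 ± 0.11, edgeR adjusted p = 0.0157) and DESeq2 (0.91, adjusted p = 0.0411). Tfr2, a transferrin receptor of liver and erythroid cells, passed as higher in the reduced fit (0.66 ± 0.11, edgeR adjusted p = 0.0110) and the corrected fit (0.59 ± 0.13, edgeR adjusted p = 0.0364), against 0.28 ± 0.22 in the full fit. Steap4, a metalloreductase, passed as lower in the same pair of fits (-0.55 ± 0.06 and -0.46 ± 0.08, edgeR adjusted p = 0.00108 and 0.0174), against -0.17 ± 0.24 in the full fit. Ncoa4, the receptor that delivers ferritin to the lysosome, passed as lower in the reduced fit (-0.40 ± 0.08, edgeR adjusted p = 0.0296) and had a log2 fold change of 0.07 in the full fit.

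Cd163, the haemoglobin scavenger receptor of macrophages, measured 41.0, 18.4, 16.3 and 38.8 CPM for isotype 2 to 5, against 41.9, 39.3, 43.7 and 41.8 CPM for anti-CSF1R 7 to 10. The anti-CSF1R libraries lay at the level of isotype 2 and 5. Csf1r stood at 238 CPM in isotype 2 and 5 and at 39.4 to 64.4 CPM with anti-CSF1R. Of the macrophage markers, 9 of 18 were lower in edgeR, but some others also lay near isotype 2 and 5. Mertk measured 89.5 and 92.4 CPM in isotype 2 and 5, against 84.0 to 106.0 CPM with anti-CSF1R. Folr2 measured 8.79 and 7.77 CPM in that pair, against 7.42 to 8.35 CPM. For Cd163 the log2 fold change was 0.54 ± 0.30 in the full fit, 0.06 ± 0.06 in the reduced fit and 0.40 ± 0.18 in the corrected fit (edgeR adjusted p = 0.299, 0.728 and 0.215). Spic, the transcription factor of iron-recycling macrophages in the spleen, was scarce, at 0.627 to 1.22 CPM with isotype and 0.132 to 0.924 CPM with anti-CSF1R. Its log2 fold change was -0.70 in the full fit, -0.96 in the reduced fit and -0.93 in the corrected fit (edgeR adjusted p = 0.339, 0.489 and 0.221).

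By Pearson's correlation of log2 CPM over the 8 libraries, among 13200 genes whose log2 CPM averaged 1 or more, the genes most like Slc40a1 were Adamts12, Igf1, Map1b, Plscr2 and Amot (r = 0.996 to 0.999). Those most like Ftl1 were Atp5b, Pgam1, Dpcd, Erp29 and Samm50 (r = 0.999 in each). All 10 share with the member the step between isotype 3 and 4 and the other libraries: Adamts12 measured 46.1 and 33.8 CPM in that pair and 129.8 to 202 CPM elsewhere, and Erp29 335 and 242 CPM against 118 to 147 CPM.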

How the data were processed

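Poly(A) RNA was sequenced from 8 parietal bone libraries, in paired reads of 101 bp per the labels' protocols. The authors deposited raw counts per gene symbol in a single table; STAR 2.7.10b, featureCounts 1.6.3 and the builds GRCm38 and GRCm39 are named in the submitters' processing notes. For annotation, strand setting and multi-mapping nothing is given in the sources used here. Between 82.8% and 84.7% of counts from 1 to 10 were even. Counting both mates of a pair would give even counts, but whether this was done is not stated and was not tested. If it was, the totals understate counting noise.

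Genes kept by filterByExpr were fitted with edgeR 4.0.16 (R 4.3.3; TMM, robust quasi-likelihood F-test, Benjamini-Hochberg over all genes, threshold 0.05). DESeq2 1.42.0 and limma-voom (3.58.1) were alternatives, as were RLE factors, library size alone, 2 other filters, leaving out each library, isotype 2 and 5 only, and an offset from splines (natural, 5 df per term) of GC content and log2 length (GENCODE M21, 94.0% of tested genes). Scripts were tested on simulated data. Scores are mean log2 CPM (prior count 2) of the markers tested; 6 relative levels were compared by exact permutation over 70 assignments. Named genes are all 10 members, Csf1r, the 4 most abundant of the wider iron list (those past the threshold, had any passed), and the 5 genes most correlated with each of the 2 members of smallest p. Cd163, Spic, Heph, Tfr2, Steap4, Ncoa4, Vsig4, Mertk, Folr2, Aco1, Ireb2, Bach1 and Nfe2l2 were named after their values were seen. The members and lists were chosen with earlier results of these data known.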

Additional observations from a re-analysis of the deposited data

Results flagged for a closer look

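Of 54 groups of 4 libraries examined for a value far from the other 3, 1 stood out: Csf1r in anti-CSF1R 10, at 39.4 CPM against 61.4 to 64.4 CPM in the other anti-CSF1R libraries (a gap of 0.879 of the group's range, past Dixon's critical value for 4 samples). Chance flags about 1 in 20 such groups. Of the iron handling genes, Tfrc, Trf, Slc11a1 and Ftl1 were also lowest among anti-CSF1R libraries in library 10, at 64.7, 38.7, 2.03 and 540.1 CPM, and none of the 10 was flagged in either group.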

How the results depend on the processing

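No paired analysis was possible because the numbers in the titles are not shared between the groups. The count of iron handling genes past the threshold was 0 on all libraries and 2 with the GC and length offset; that of the wider list was 0, and 1 with DESeq2, 3 with the offset and 4 with only isotype 2 and 5. Both counts were 0 without each library in turn, and under RLE factors, library size alone, limma-voom and both other filters. Trf (0.15), Slc11a1 (0.32), Blvrb (0.19) and Ncoa4 (-0.40) changed sign in the reduced fit (isotype 2 and 5 only), and Blvrb (0.14), Slc39a14 (-0.02) and Ncoa4 (-0.31) in the corrected fit, with the offset. Dropping 1 library at a time, Ncoa4 ran from -0.12 to 0.30. Slc11a1 minus the neutrophil score turned to 0.03 with the offset, an alternative added after the data were seen, and lay between -0.31 and 0.11 when 1 library was dropped at a time. Single libraries were not left out of the corrected fit. The cause of these turns was not tested. Library size alone moved the median of all genes by 0.16 and left the sign of all 10 members as it was. With 4 against 3 libraries the exact test cannot go below 0.0571, and with 4 against 2 not below 0.133, so those values say nothing about stability.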

Other observations

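The SD of log2 CPM was larger within the isotype group than within the anti-CSF1R group in 10 of 10 members and 31 of 35 genes of the wider iron list, against 89.4% of all genes tested. The values of 4 regulators from that list, chosen after their values were seen, are given here. Aco1, the gene of iron-regulatory protein 1, measured 57.1, 97.1, 83.1 and 55.8 CPM for isotype 2 to 5, against 57.2 to 58.9 CPM in the anti-CSF1R libraries. Ireb2, the gene of iron-regulatory protein 2, ran the other way, with 87.5, 31.0, 21.1 and 81.9 CPM for isotype 2 to 5, against 82.5 to 97.6 CPM with anti-CSF1R. Bach1, a repressor of Hmox1, and Nfe2l2, its activator NRF2, were both low in isotype 3 and 4. Bach1 stood at 16.4 and 13.8 CPM there against 42.5 to 49.6 CPM with anti-CSF1R, and Nfe2l2 at 25.8 and 23.5 CPM against 44.8 to 49.0 CPM. In isotype 2 and 5, all 4 genes stood within 2 CPM of the anti-CSF1R range.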
